A study of Mus musculus with 10 samples.

Results

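Expression of 10 genes that supply acetyl-CoA and build fatty acids was followed in livers of 4-week-old male mice, measured on 10 whole-transcript Affymetrix mouse gene arrays. The members were listed by name. Acss2 and Acly make acetyl-CoA, Acaca, Fasn, Elovl6 and Scd1 build and finish the fatty acid chain, Me1 supplies NADPH, Srebf1 and Mlxipl encode the transcription factors, and Pnpla3 encodes a lipase of the lipid droplet. They are 10 of 22180 genes read by a transcript cluster (the probes that report one transcript) with a single gene symbol, and each had exactly 1 such cluster. All 10 stood above the level filter (log2 3.98, the 40th percentile of mean level), Pnpla3 at the 58.0th percentile and the other 9 at the 88.8th or higher. The first group held 3 livers with Rosa26-rtTA and SOD2 shRNA 1, the second 3 livers with Rosa26-rtTA and SOD2 shRNA 2, and the third 4 control livers from littermates with Rosa26-rtTA only. rtTA drives a construct under its control while doxycycline is present, and the hairpins target Sod2, the mitochondrial superoxide dismutase. Pregnant dams ate doxycycline chow at 625 mg/kg for knockdown over embryonic day 0 to 12.5. All 3 groups carried Rosa26-rtTA. The sources used here do not give the promoter that drives the hairpins, the feeding state or the time of day at collection. Among the 4 controls, 1 belonged to the cohort of shRNA 1 and the other 3 to that of shRNA 2, and no label says which is which, so hairpin and cohort cannot be told apart, and shRNA 1 against control is mostly a comparison between cohorts. Nothing in the labels says that each liver came from its own animal, so p-values cover only the spread among samples, which may be technical.

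Cytosolic acetyl-CoA is the carbon source of fatty acid synthesis. ATP citrate lyase (Acly) makes it from citrate exported by mitochondria and acetyl-CoA synthetase 2 (Acss2) makes it from acetate. Acetyl-CoA carboxylase 1 (Acaca) turns it into malonyl-CoA, fatty acid synthase (Fasn) builds palmitate from that with NADPH, part of which comes from malic enzyme 1 (Me1), and Elovl6 and Scd1 then elongate and desaturate the product. In liver the pathway is active after feeding, when SREBP-1c (from Srebf1), driven by insulin, and ChREBP (Mlxipl), driven by glucose metabolites, raise transcription of these enzymes and of Pnpla3. Both factors are also controlled after transcription, by cleavage and by nuclear entry, which an array of messenger RNA does not measure.

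The promoters of Acss2, Acly, Fasn and Elovl6 are printed because these are the members with the largest mean differences between hairpin livers and controls. Each line gives the 250 bases before the start of the gene, 5′ to 3′ on the gene's strand, from RefSeq on GRCm38.p6. Capitals mark matches on either strand to the motifs searched: the E-box CANNTG, its palindromic form CACGTG, the sterol regulatory element TCACNCCAC, the carbohydrate response element (CACGTG repeated after 5 bases), the inverted CCAAT box ATTGG, the GC box GGGCGG and the LXR element (AGGTCA repeated after 4 bases).
Acss2, chr2:155517793-155518042, plus strand: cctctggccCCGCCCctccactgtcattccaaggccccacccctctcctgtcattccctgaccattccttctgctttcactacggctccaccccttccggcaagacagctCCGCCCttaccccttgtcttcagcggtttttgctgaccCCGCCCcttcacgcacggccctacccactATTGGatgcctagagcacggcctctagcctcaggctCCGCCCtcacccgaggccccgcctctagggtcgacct
Acly, chr11:100528001-100528250, minus strand: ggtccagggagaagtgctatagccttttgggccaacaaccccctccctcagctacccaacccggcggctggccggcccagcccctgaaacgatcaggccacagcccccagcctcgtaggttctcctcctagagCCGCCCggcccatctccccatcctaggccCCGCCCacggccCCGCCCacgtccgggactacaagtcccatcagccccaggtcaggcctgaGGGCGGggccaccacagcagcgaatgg
Fasn, chr11:120824548-120824797, minus strand: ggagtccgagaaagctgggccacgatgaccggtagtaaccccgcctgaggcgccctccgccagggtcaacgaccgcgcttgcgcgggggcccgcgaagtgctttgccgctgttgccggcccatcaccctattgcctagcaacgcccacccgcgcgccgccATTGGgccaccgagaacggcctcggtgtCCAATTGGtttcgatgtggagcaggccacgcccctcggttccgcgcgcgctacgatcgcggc
Elovl6, chr3:129532136-129532385, plus strand: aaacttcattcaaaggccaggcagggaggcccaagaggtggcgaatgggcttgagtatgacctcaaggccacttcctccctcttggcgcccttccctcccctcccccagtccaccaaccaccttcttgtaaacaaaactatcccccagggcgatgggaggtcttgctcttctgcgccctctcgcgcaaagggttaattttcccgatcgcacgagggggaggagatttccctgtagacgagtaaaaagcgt
The Acss2 stretch holds 4 GC boxes and 1 inverted CCAAT box, the Acly stretch holds 4 GC boxes, and the Fasn stretch holds 3 CCAAT matches, of which 2 overlap each other and an E-box in one run of capitals. The Elovl6 stretch holds 0 matches to the motifs searched. Its GC content was 56.4%, against 64.0% for Acss2, 68.8% for Acly and 69.2% for Fasn.

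Promoter windows of 250 bases before and 50 bases after the start were matched for 9 of the 10 members, 13 windows in all, since Me1 and Mlxipl have 2 and Srebf1 has 3. The inverted CCAAT box was present in 8 of the 13 windows, from 7 members, and in 37.4% of all 32851 windows. The GC box was present in 7 of the 13 windows, from 6 members (35.7% of all windows). The E-box, which includes the palindromic form, was present in 9 of the 13, from 6 members (72.3%). Mlxipl was the only member with TCACNCCAC (1.24% of all windows), at positions -136 to -128 from one of its starts. It was also the only member with CACGTG (7.15%), at positions -98 to -93 from another start. The LXR element (0.0152% of all windows) matched no member. The exact repeat searched as the carbohydrate response element matched 0 of 32851 windows, so its absence from the members does not set them apart. These are matches of letters and do not show binding. A site that differs from the letters searched, or lies outside the window, is missed, so a lack of matches does not show a lack of sites.

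The median log2 level per array ran from 4.06 to 4.17, and any pair of arrays had r of 0.979 to 0.986 over all clusters. The number of arrays limits the precision. Albumin (Alb) lay between 13.70 and 13.82 on all 10 arrays, the same range as the highest values of the arrays, so its constancy says little. Of 11 tested hepatocyte markers, 6 were positive and 5 negative in livers with either hairpin against controls, with a median of 0.02 (52% of all genes were positive). At an unadjusted p under 0.05 in limma, 1 was higher, against 4.86% of all genes, and 1 was lower. Tat was at 0.26 and Hnf4a at -0.18. Adipocytes also express enzymes of this pathway. Their defining markers Adipoq (2.51 to 2.97) and Lep (2.96 to 3.29) lay below the filter level on every array, as did Retn at its median, and 5 of the 8 measured markers were tested. The summed level of the 8, log2 12.89 to 13.07 in shRNA 1 livers, 12.79 to 12.91 in shRNA 2 livers and 12.64 to 12.93 in controls, was carried by Car3 (12.57 to 13.02), which hepatocytes also express, and no other marker exceeded 7.97. It is therefore no measure of adipocytes.

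The summed level of 8 stellate cell markers lay at 11.65 to 11.72 in shRNA 1 livers, 11.63 to 11.80 in shRNA 2 livers and 11.48 to 11.61 in controls. The sum was carried by Dcn (10.58 to 10.92), and in livers with either hairpin against controls 4 of the 8 markers were positive and 4 negative, with a median difference of 0.01. That of 7 sinusoidal endothelial markers lay at 11.84 to 11.87 in shRNA 1 livers, above all shRNA 2 livers (11.69 to 11.77) and all controls (11.66 to 11.83). Of these 7 markers, 4 were positive in shRNA 1 livers against controls (52.4% of all genes), with a median of 0.10. In shRNA 1 against shRNA 2 livers 6 were positive (51.1% of all genes), with a median of 0.06. For both lines together against controls 5 were positive (52% of all genes), with a median of 0.06. The summed level of 5 measured cholangiocyte markers lay at 6.50 to 6.76 in shRNA 1 livers, 6.71 to 6.85 in shRNA 2 livers and 6.79 to 7.04 in controls. Of the 3 tested, Sox9 was at -0.46, Epcam at -0.02 and Krt7 at 0.13, and Krt19 and Cftr lay below the filter level. The part of these cell types in the differences below was not tested. In bulk tissue, fewer cells of a type and less RNA per cell cannot be told apart.

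Acss2, one of the acetyl-CoA makers, differed between all 3 groups. Its log2 level was 10.46, 10.45 and 10.42 in shRNA 1 livers, 10.01, 9.95 and 9.88 in shRNA 2 livers, against 9.48, 9.74, 9.74 and 9.78 in controls. The 3 groups did not overlap, with shRNA 1 livers highest and controls lowest. Livers with either hairpin stood 0.51 above controls (standard error 0.08, exact permutation p = 0.019 over the 210 splits of 6 against 4 samples). The gap was 0.76 (standard error 0.09), or 1.69-fold, in shRNA 1 livers and 0.26 (standard error 0.09), or 1.20-fold, in shRNA 2 livers.

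Acly, the other acetyl-CoA maker, followed the same order. It stood at 10.94, 10.91 and 10.62 in shRNA 1 livers, 10.44, 10.47 and 10.35 in shRNA 2 livers, against 10.19, 10.03, 10.20 and 9.76 in controls. Again the groups did not overlap, and control replicate 4 was the lowest array. The mean difference of hairpin livers from controls was 0.58 (standard error 0.11, exact permutation p = 0.00476, the smallest that 210 splits allow), and it was 0.48 without control replicate 4. By line it was 0.78 (standard error 0.12) in shRNA 1 livers, or 1.71-fold, and 0.38 (standard error 0.12) in shRNA 2 livers, or 1.30-fold.

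Fasn, which carries out the whole cycle of chain building, behaved like Acly. Its values were 11.29, 11.44 and 11.21 in shRNA 1 livers, 10.95, 10.88 and 11.05 in shRNA 2 livers, against 10.80, 10.53, 10.78 and 10.23 in controls. All 3 groups were separate, the lowest shRNA 2 liver standing only 0.085 above the highest control. The share of all genes with 3 separate groups, as in Acss2, Acly and Fasn, was not counted. Hairpin livers differed from controls by 0.55 (standard error 0.11, exact permutation p = 0.00476), and by 0.43 without control replicate 4. By line the difference was 0.73 (standard error 0.14), or 1.66-fold, in shRNA 1 livers and 0.38 (standard error 0.14), or 1.30-fold, in shRNA 2 livers.

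Acaca makes the malonyl-CoA that Fasn uses, and its groups were closer. It was at 9.49, 9.31 and 9.26 in shRNA 1 livers, 9.05, 9.09 and 9.21 in shRNA 2 livers, against 9.13, 8.74, 9.04 and 8.87 in controls. The shRNA 1 livers lay above all other arrays, and the shRNA 2 livers overlapped the controls. The difference of hairpin livers was 0.29 (standard error 0.09, exact permutation p = 0.0286), with 0.41 in shRNA 1 livers and 0.17 in shRNA 2 livers (standard error 0.11 each).

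Elovl6, the elongase of the chain made by Fasn, had the largest mean difference of the 10 members in both lines together and a wide spread in one of them. It stood at 10.45, 10.91 and 10.53 in shRNA 1 livers, 10.40, 10.71 and 9.86 in shRNA 2 livers, against 9.78, 9.95, 9.92 and 9.81 in controls. Of the 6 hairpin livers, 5 lay above all controls, and shRNA 2 replicate 3 lay among them. The difference was 0.61 (standard error 0.15, exact permutation p = 0.0286) for both lines together. In shRNA 1 livers it was 0.77 (standard error 0.18), or 1.70-fold. In shRNA 2 livers it was 0.46, against 0.70 without replicate 3 and 0.27 without replicate 2 of that line.

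Scd1, the desaturase that acts last, gave a smaller difference than the enzymes before it. Its values ran from 12.73 to 12.78 in shRNA 1 livers, from 12.52 to 12.76 in shRNA 2 livers and from 12.50 to 12.67 in controls. The shRNA 1 livers lay just above the controls and the shRNA 2 livers overlapped them, with a difference of 0.09 for both lines (standard error 0.08, exact permutation p = 0.214). Scd1 had the highest level of the members by percentile, at the 99.8th.

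Me1, malic enzyme 1, stood apart in the shRNA 1 livers. It stood at 10.87, 10.73 and 10.84 in shRNA 1 livers, 10.01, 10.13 and 9.49 in shRNA 2 livers, against 9.35, 10.13, 10.14 and 10.01 in controls. The shRNA 1 livers lay above all other arrays, while shRNA 2 livers and controls covered the same range, each with 1 low liver. The mean of shRNA 1 livers was 0.91 above controls (standard error 0.20), or 1.87-fold, and that of shRNA 2 livers differed by -0.03 (standard error 0.20), a sign that turned in several settings. For both lines together the difference was 0.44 (standard error 0.17, exact permutation p = 0.229) and 0.25 without control replicate 1.

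**Figure D1:**
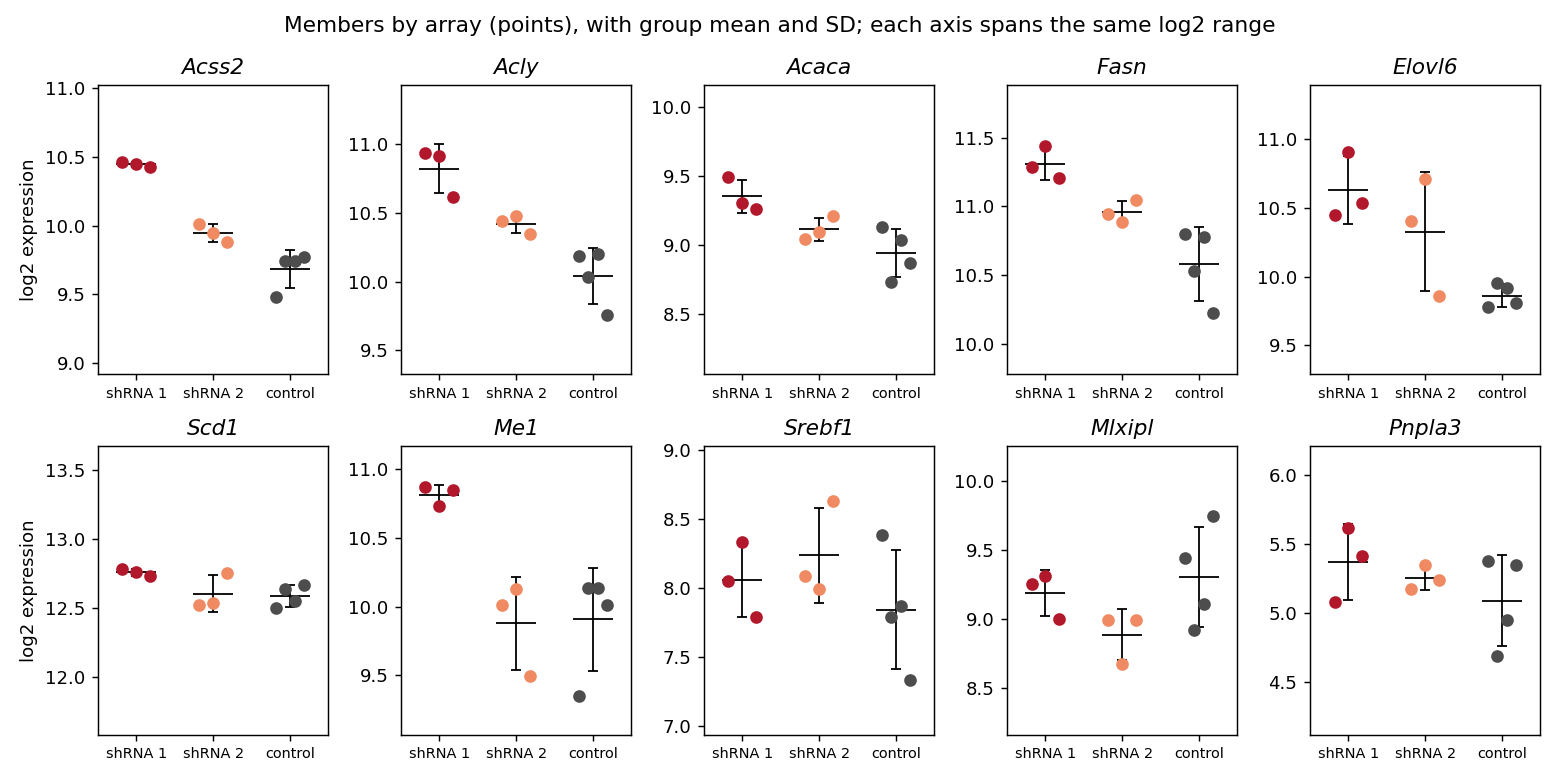
Log2 expression of the 10 members (vertical axes, each spanning the same log2 range) in shRNA 1, shRNA 2 and control livers; points are arrays, horizontal lines group means and bars the SD (n = 3, 3 and 4). Acss2, Acly and Fasn form 3 separate steps, Me1 is high only in the 3 shRNA 1 livers, and Srebf1, Mlxipl and Pnpla3 overlap between groups.

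The messages of the 2 transcription factors did not separate hairpin livers from controls. Srebf1 was at 8.05, 8.33 and 7.79 in shRNA 1 livers, 8.09, 7.99 and 8.63 in shRNA 2 livers, against 8.39, 7.79, 7.87 and 7.33 in controls. One array, shRNA 2 replicate 3, lay above all controls, and the difference of hairpin livers was 0.31 (standard error 0.19, exact permutation p = 0.229). Srebf1 is read by 1 cluster here, which does not tell the SREBP-1a and SREBP-1c transcripts apart.

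Mlxipl stood at 9.25, 9.31 and 9.0 in shRNA 1 livers, 8.99, 8.67 and 8.99 in shRNA 2 livers, against 9.44, 8.92, 9.11 and 9.74 in controls. It was the only member with a negative mean difference, -0.27 (standard error 0.15, exact permutation p = 0.19), and both hairpin lines overlapped the controls, while all shRNA 1 livers lay above all shRNA 2 livers by a narrow gap (0.008). Against controls the mean of shRNA 1 livers was -0.12, which became 0.03 without control replicate 4.

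Pnpla3 was at 5.08, 5.62 and 5.42 in shRNA 1 livers, 5.18, 5.35 and 5.24 in shRNA 2 livers, against 5.38, 4.69, 4.95 and 5.35 in controls. The groups overlapped, with a difference of 0.22 (standard error 0.15, exact permutation p = 0.224). Its level is the lowest of the members by percentile.

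Across all 13308 genes tested in limma, 0 of the 10 members passed a Benjamini-Hochberg adjusted p of 0.05 in livers with either hairpin against controls, where 1 gene (Ctse, cathepsin E) passed, or 0.00751% of those tested. The smallest adjusted p among the members was 0.158, for Acss2, followed by 0.170 for Acly, 0.264 for Fasn and 0.297 for Elovl6. At an unadjusted p under 0.05, 6 of the 10 members were higher, against 4.86% of all genes. The exact permutation test gave 5 higher members under 0.05, against 4.66% of all genes, and 3 without control replicate 4. Every hairpin liver lay above every control for 3 members (Acss2, Acly and Fasn), against 1.04% of all genes. In sign, 9 of 10 members were positive, against 52% of all genes. The median difference of the members was 0.37, against 0.01 for all genes tested. The members were listed with earlier results of these arrays known, so these counts describe them and give no independent support.

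In shRNA 1 livers against controls 0 members passed in limma, and 0% of all genes did, while 6 members were higher at an unadjusted p under 0.05, against 4.57% of all genes. Acss2 was at an adjusted p of 0.0520 and Acly at 0.0603, with Fasn at 0.112, Me1 at 0.209, Elovl6 at 0.238 and Acaca at 0.336. Acss2 passed in 9 of 21 alternative settings, the intensity trend with a robust prior giving the smallest adjusted p of 0.00521. The 3 shRNA 1 livers lay above all 4 controls for 7 of 10 members, against 5.07% of all genes, and 9 of 10 members were positive (52.4% of all genes). The median difference was 0.57, against 0.01 over all genes.

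In shRNA 2 livers, set against the same 4 controls, 0 members passed and 1 gene of all those tested did (Ctse, 0.00751%). At an unadjusted p under 0.05, 4 members were higher, against 4.14% of all genes, and 1, Mlxipl, was lower, against 3.46%. The smallest adjusted p of a member was 0.620, for Acss2, Acly and Fasn. The 3 shRNA 2 livers lay above all controls for 3 of 10 members (3.88% of all genes), and 8 of 10 members were positive (51.2% of all genes). The median difference was 0.22. The lines share their controls, so that the results of the lines are not independent of each other.

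**Figure D2:**
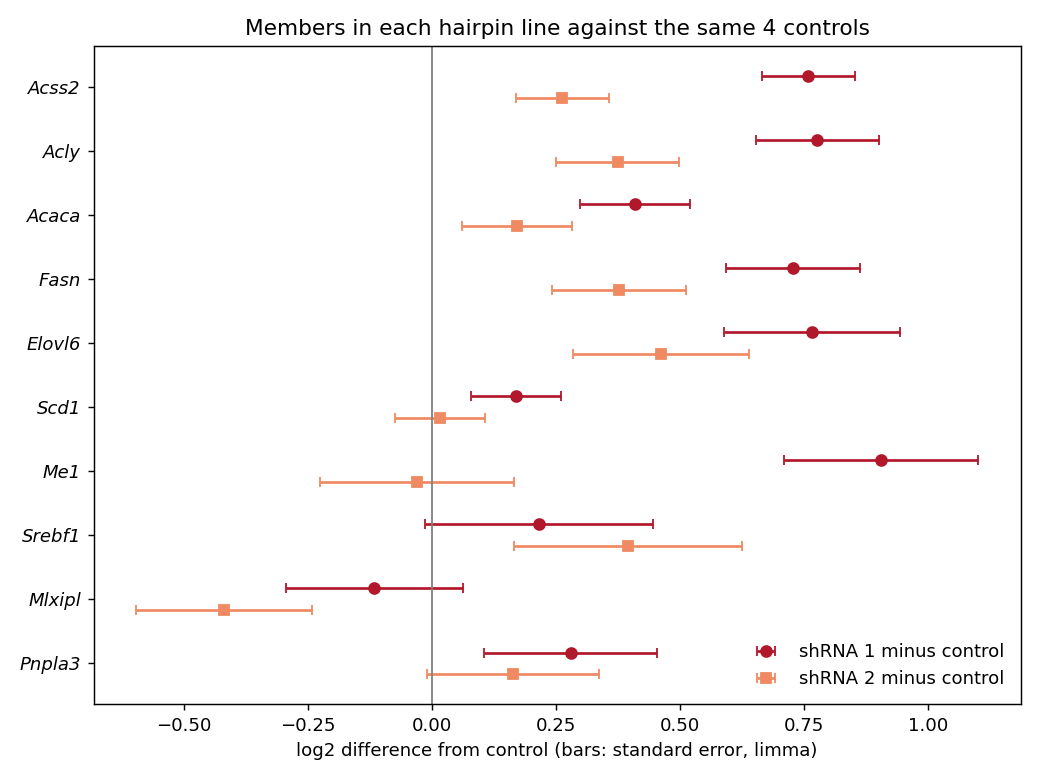
Log2 difference from control (horizontal axis) of each member in shRNA 1 livers (circles) and shRNA 2 livers (squares), with bars for the standard error of the limma fit over 10 arrays. From Acss2 to Elovl6 both lines lie to the right of 0 with shRNA 1 farther out, and Me1 lies at 0.91 in shRNA 1 and at -0.03 in shRNA 2.

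The difference between the lines was tested directly. Set against shRNA 2 livers, shRNA 1 livers had 0 members past the adjusted threshold, and 2 of all genes passed (Ctse and Dusp1, 0.015%). At an unadjusted p under 0.05, 4 members were higher, against 3.32% of all genes. The members with the smallest adjusted p were Acss2, at 0.50 (standard error 0.10, adjusted p = 0.255 in limma), and Me1, at 0.94 (standard error 0.21, adjusted p = 0.330). The shRNA 1 livers lay above all shRNA 2 livers for 6 of 10 members (Acss2, Acly, Acaca, Fasn, Me1 and Mlxipl), against 5.94% of all genes, and 9 of 10 were positive (51.1%). Exact permutation of 3 against 3 samples cannot go below p = 0.1, which each of these 6 members reached.

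The levels of the 8 other members were then set against those of the 2 transcription factors over the 10 arrays, as 16 relations. With Srebf1 the Pearson r ran from -0.32 (Me1) to 0.62 (Fasn), and with Mlxipl from -0.37 (Elovl6) to 0.31 (Pnpla3). No relation passed, the smallest permutation p after adjustment over the 16 being 0.881 for Pearson's r and 0.842 for Spearman's rho. For Fasn and Srebf1, r was 0.62 (permutation p = 0.0565, adjusted 0.881) and rho 0.55 (permutation p = 0.105, adjusted 0.842). This r fell to 0.36 without control replicate 4 and shRNA 2 replicate 3, the arrays farthest from the median of Srebf1. It therefore rests in part on those arrays. Without control replicates 1 and 4, the arrays farthest from the median of Mlxipl, the r values with Mlxipl ran from 0.13 to 0.63. Within the 6 hairpin livers, r with Mlxipl ran from 0.12 (Pnpla3) to 0.9 (Fasn). There r with Srebf1 ran from -0.63 (Me1) to 0.32 (Scd1), with Fasn at 0.08. The difference between the lines enters these r values, and they were not tested.

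Within groups Fasn and Srebf1 kept a common order. In shRNA 1 livers the array with more Srebf1 had more Fasn throughout, and the same was so in shRNA 2 livers, while among controls replicate 4 was lowest and replicate 1 highest for both. Taken as deviations from group means over the 10 arrays, r was 0.87 (exact permutation p = 0.00231 over 864 orders within groups, adjusted 0.037 over the 16 relations) and rho was 0.92 (exact permutation p = 0.00231, adjusted 0.037). Leaving out control replicates 1 and 4 gave r = 0.72. This measure was chosen after the arrays had been seen, and the other 15 relations did not pass in it, with adjusted p of 0.272 or more for r.

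**Figure D3:**
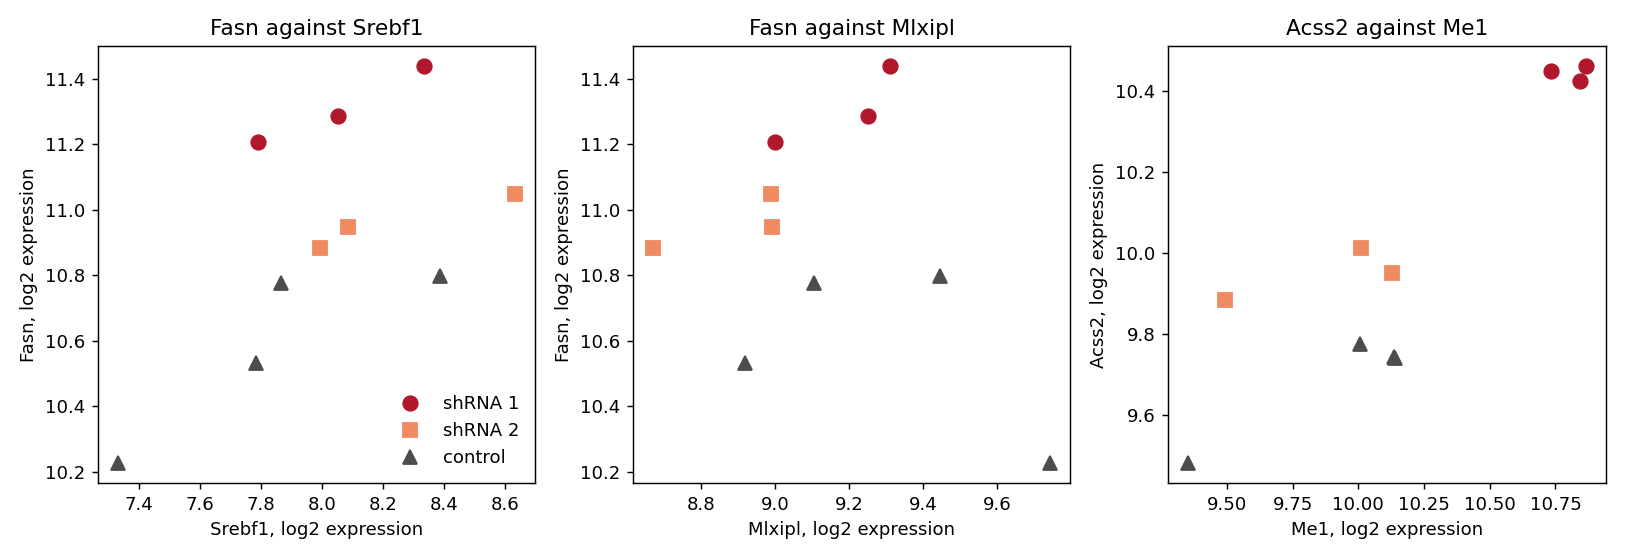
Log2 expression of Fasn against Srebf1 (left), Fasn against Mlxipl (middle) and Acss2 against Me1 (right), 1 point per array, with circles for shRNA 1, squares for shRNA 2 and triangles for control livers. Fasn follows Srebf1 inside each group with the groups offset from each other, and control replicate 1 is lowest in both Acss2 (9.48) and Me1 (9.35).

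The genes whose pattern over the 10 arrays was most like the mean of the 10 members were ranked by Pearson's r. They were Cps1, a urea cycle enzyme (0.94), Tdo2, which opens tryptophan (0.92), Hpgd, which inactivates prostaglandins (0.91), Gbe1, the glycogen branching enzyme (0.91), Xaf1 (0.89) and Cdcp1 (0.88). In deviations from group means, r for these genes was between -0.15 and 0.59. The genes most alike in the deviations were Akap13 (0.99), Tbxas1 (0.92), 1700057H15Rik (0.91), Dnajc24 (0.90), Alkal2 (0.90) and Tesc (0.89). These r values are the highest of 13308 and are a description only. Of the members themselves, Acly (0.93), Fasn (0.89), Acss2 (0.88) and Acaca (0.84) followed the mean of the other 9 most closely, and Srebf1 (0.19) and Mlxipl (-0.19) least. In deviations from group means, r was 0.51 for Acly, 0.4 for Fasn and 0.31 for Acaca, but -0.42 for Acss2. It was lowest for Me1, at -0.63.

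Other genes that feed or use the pathway were taken from lists and none of those described next passed the adjusted threshold in livers with either hairpin against controls. In that comparison 52% of all 13308 genes tested were positive. At an unadjusted p under 0.05 in limma, 4.86% of them were higher and 467 genes lower. Of 14 tested genes of acetyl-CoA and citrate supply, 10 were positive with a median of 0.14, and 3 were higher and 1 lower at an unadjusted p under 0.05 in limma. Acss3, a mitochondrial relative of Acss2, was at 7.13, 7.22 and 7.09 in shRNA 1 livers, 6.43, 6.82 and 6.90 in shRNA 2 livers, against 4.59, 6.36, 5.67 and 6.28 in controls. All hairpin livers lay above the controls, whose own spread was wide, and the difference was 1.21 (standard error 0.28, adjusted p = 0.293 in limma). Pdk1, which inhibits pyruvate dehydrogenase, was at 0.21, Dlat, a subunit of that enzyme, at 0.18 and Crat, carnitine acetyltransferase, at -0.34.

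Of 18 other genes of fatty acid synthesis, 16 were positive, against 52% of all genes, with a median of 0.09. At an unadjusted p under 0.05, 3 were higher, against 4.86% of all genes. The largest difference was negative, that of Elovl3 at -1.18 (standard error 0.82, adjusted p = 0.748 in limma). Thrsp (Spot 14), which promotes lipogenesis, differed by 0.56 (adjusted p = 0.433 in limma), Acacb, the mitochondrial acetyl-CoA carboxylase, by 0.33 (adjusted p = 0.466), Mecr by 0.21 and Tecr by 0.18. All 6 tested genes listed as other NADPH sources were positive (median 0.15, 2 of them higher at an unadjusted p under 0.05), led by Pgd, 6-phosphogluconate dehydrogenase, at 0.49 (adjusted p = 0.318). Me2, the mitochondrial malic enzyme, was at 0.14 in shRNA 1 livers and 0.26 in shRNA 2 livers, where Me1 was at 0.91 and -0.03.

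The 27 genes that control SREBP-1 and ChREBP had a median of 0.03, with 16 positive, against 52% of all genes. At an unadjusted p under 0.05, 2 were higher, against 4.86% of all genes, and 1 was lower. The list included Mbtps2, a protease that releases SREBPs, at 0.30 and Hnf4a at -0.18. Of 9 glycolytic and ChREBP-linked genes 8 were positive, with a median of 0.26, and 3 were higher at an unadjusted p under 0.05. Arrdc4, an arrestin-like gene induced by glucose, was at 0.48 (standard error 0.09, adjusted p = 0.190 in limma). It stood at 7.29, 7.51 and 7.61 in shRNA 1 livers, 7.85, 7.79 and 8.01 in shRNA 2 livers, against 7.32, 7.09, 7.31 and 7.08 in controls. Here shRNA 2 livers were the highest, unlike in the members from Acss2 to Elovl6. Khk, ketohexokinase, was at 0.40, Slc2a2, the glucose transporter GLUT2, at 0.36 and Txnip at 0.26.

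Glycerolipid synthesis and droplet genes, which store the product, had a median of 0.04 with 13 of 20 positive, against 52% of all genes. At an unadjusted p under 0.05, 1 was higher, against 4.86% of all genes. Gpam, which starts glycerolipid synthesis, was at 0.30, Pnpla2 at 0.28, Dgat1 at 0.22 and G0s2, an inhibitor of Pnpla2, at -0.71. Sterol synthesis and uptake genes, which SREBP-2 controls, had a median of 0.20 with 15 of 16 positive and 7 higher at an unadjusted p under 0.05, among them Pmvk (0.28), Fdps (0.37), Nsdhl (0.35) and Fdft1 (0.32). In shRNA 1 livers against shRNA 2 livers 3 of these 16 were positive, against 9 of the 10 members and 51.1% of all genes. Fatty acid oxidation had a median of 0.03 with 14 of 16 positive and 1 higher at an unadjusted p under 0.05. Hadh was at 0.19, Cyp4a14 at 0.56, Hadhb at 0.16 and Cpt1a at -0.08. Controls alone spanned 9.29 to 11.97 in Cyp4a14, and Hadhb was read at a low level, 4.75 to 5.37 over all arrays.

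**Figure D4:**
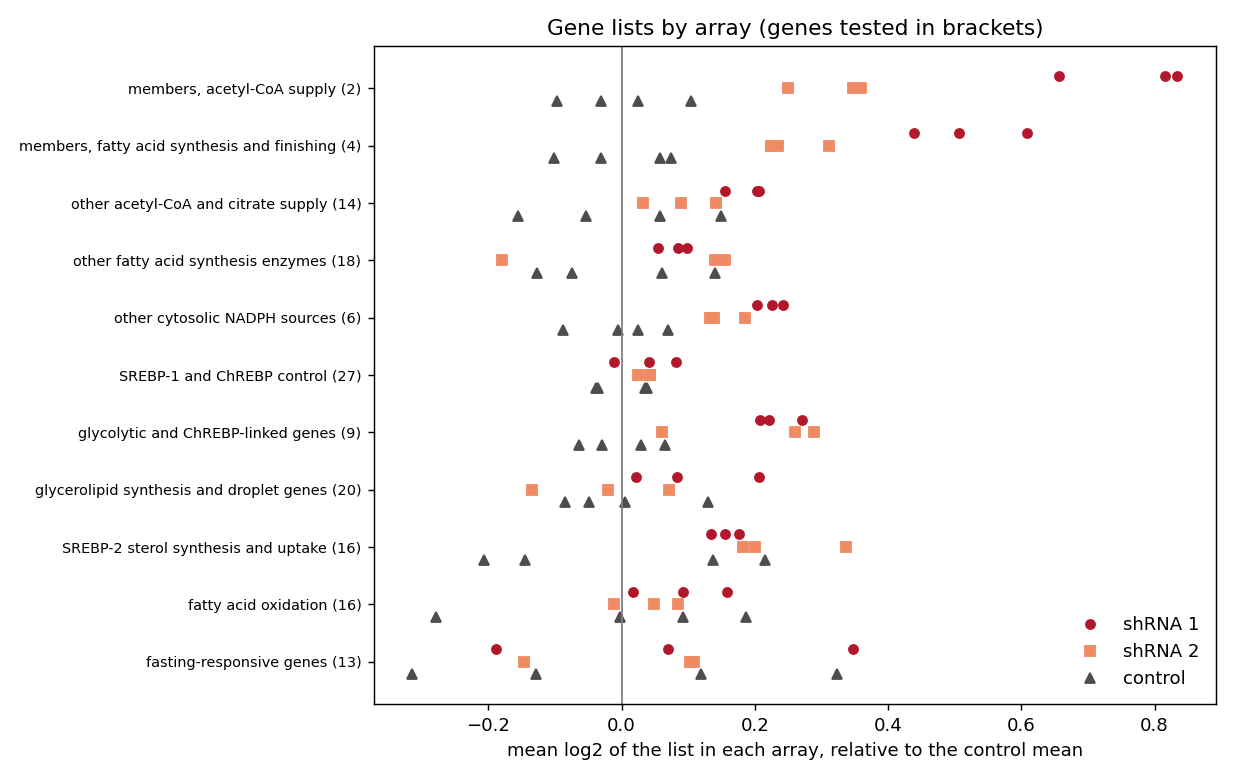
Mean log2 level of each gene list in each array relative to the control mean (horizontal axis), with circles for shRNA 1, squares for shRNA 2 and triangles for control livers, and the number of genes tested in brackets. The acetyl-CoA members lie at 0.66 to 0.83 in shRNA 1, 0.25 to 0.36 in shRNA 2 and -0.10 to 0.10 in control livers. Other cytosolic NADPH sources, which are not members, also form separate steps, at 0.204 to 0.242, 0.133 to 0.185 and -0.088 to 0.07 in that order. Fatty acid oxidation and fasting-responsive genes overlap between groups.

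Feeding and the clock both act on this pathway, so their genes were read in the same arrays. The mean of 13 fasting-responsive genes, relative to the control mean, ran from -0.19 to 0.35 in shRNA 1 livers, from -0.15 to 0.11 in shRNA 2 livers and from -0.31 to 0.32 in controls, and the groups overlapped. Its leading genes went both ways, with Ppargc1a (PGC-1 alpha) at 0.59, G6pc (glucose-6-phosphatase) at 0.58, Tat at 0.26 and Fgf21, a fasting hormone, at -0.94. The first component of 15 clock genes, which held 69.0% of their variance, put control replicate 1, shRNA 1 replicate 1 and shRNA 2 replicates 1 and 3 on one side (2.55 to 5.16) and the other 6 arrays on the other side (-3.14 to -1.27). Dbp, a clock output gene, was at 8.29 to 9.09 in the 3 hairpin livers and 8.71 in the control of the first set, and at 7.01 to 7.74 in the hairpin livers and 6.85 to 7.38 in the controls of the second.

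The second set held 2 shRNA 1 livers, 1 shRNA 2 liver and 3 controls. A limma fit within it, with the lines weighted equally as over all arrays, gave differences of 0.44 for Acss2, 0.62 for Acly, 0.59 for Fasn, 0.82 for Elovl6 and 0.37 for Me1. Over all arrays these were 0.51, 0.58, 0.55, 0.61 and 0.44 in the same order, so that Acss2 and Me1 were smaller within the set and the other 3 larger. The first set held 1 shRNA 1 liver and 2 shRNA 2 livers against 1 control. Its plain mean differences were 0.64, 0.39, 0.30, 0.46 and 0.77 in that order. Srebf1 (-0.13), Mlxipl (-0.37) and Pnpla3 (-0.21) were negative there. In the second set Mlxipl alone was negative, at -0.26 as a plain mean difference and -0.34 in the limma fit. The control of the first set was replicate 1, the lowest control for Acss2 (9.48) and Me1 (9.35). With the component as a covariate over all 10 arrays, Acss2 was at 0.54 (adjusted p = 0.0995 in limma), Acly at 0.55 (adjusted p = 0.161) and Elovl6 at 0.71 (adjusted p = 0.150), and in shRNA 1 livers Acss2 passed at 0.76 (adjusted p = 0.0302). The split by clock genes was made after the arrays had been seen.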

How the data were processed

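The authors deposited log2 expression values per transcript cluster, made with Affymetrix Expression Console per the submitters' processing notes, with 1 array per liver sample from 25 mg of tissue. Its version, the array normalization and the genome build are not stated there. That the scale is log2 follows from the range of the values. Values were used as deposited. Of 41345 clusters, 23521 carried 1 gene symbol in the platform annotation, 1814 several and 16010 none there. For a gene with several clusters the one with the highest mean was kept. A level filter at the 40th percentile of gene means left 13308 genes.

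One limma fit over all 10 arrays (limma 3.58.1, R 4.3.3) gave 4 two-sided comparisons, adjusted by the Benjamini-Hochberg method over all genes tested, with a threshold of 0.05. Differences are first-named group minus second. Exact permutation tests were two-sided. Correlations used 100000 permutations unless called exact. The fit was tested on simulated data.

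The members and gene lists were chosen with earlier results of these data known. All 10 members are named, with up to 4 genes per list by the largest absolute moderated statistic in both hairpins against control, genes past the threshold, and the 6 genes most like the member mean. Elovl3 is named as well, for the largest difference in its list. Replicate numbers are shared by groups. Over all genes tested, same-numbered arrays did not deviate together throughout (r from -0.25 to 0.267, against -0.279 to 0.272 for other pairs). The numbers were therefore not taken as pairs in the main fit. On the clock gene component, however, the replicate 1 arrays of all 3 groups lay on one side and the replicate 2 arrays on the other. Alternatives were quantile normalization, median centring, other level filters, the mean of a gene's clusters, array weights, the replicate number as a block, a robust prior with an intensity trend, only the groups compared, a clock covariate and leaving out each array. Python 3.11.15, scipy 1.17.1 and matplotlib 3.10.9 were used.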

Additional observations from a re-analysis of the deposited data

Results flagged for a closer look

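In the control group of 4, a single array stood apart from the other 3 for 2 of the 10 members. For Acss2 the gap of control replicate 1 (log2 9.48) to the nearest control was 0.882 of the range of the group, and for Me1 (9.35) it was 0.835 of the range, above Dixon's critical value for 4 samples, which chance passes in about 1 of 20 groups. Both flags fall on the same array, and Acss2 and Me1 deviated together from group means (r = 0.88), so the flags are not independent. The share of all genes with such a gap was not counted. Control replicate 1 was also the only control on its side of the clock gene component. Without it, Acss2 differed between hairpin livers and controls by 0.44 and Me1 by 0.25.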

How the results depend on the processing

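The mean difference over the 10 members kept its sign in all 21 alternatives run for each comparison: 0.31 to 0.37 in livers with either hairpin, 0.44 to 0.54 in shRNA 1 and 0.15 to 0.21 in shRNA 2 livers against controls, and 0.26 to 0.36 in shRNA 1 against shRNA 2 livers. Members passing in shRNA 1 livers numbered 1 with a clock covariate, quantile normalization or averaging of a gene's clusters, 2 with array weights or a filter at the 60th percentile (which leaves Pnpla3 untested), and 3 with a robust prior and intensity trend, which also gave 1 in both lines together. Genes passing in shRNA 1 livers, in the order quantile normalization, 60th percentile, mean of clusters, array weights, trend and clock covariate, numbered 1, 15, 7, 19, 30 and 2. In both lines together they numbered 0 with the 60th percentile filter, with only the groups compared or within the 6 arrays of one clock phase, and 6 with the trend. In shRNA 2 livers they numbered 0 with the 60th percentile filter. Between the lines they numbered 1 with quantile normalization, the 60th percentile filter or the clock covariate, 4 with median centring, 6 with array weights and 7 with the trend. With the replicate number as a block they numbered 4 between the lines, and the block changed no other call. Leaving out each array in turn gave 1 to 3 genes in both lines together, 0 to 11 in shRNA 1, 1 to 3 in shRNA 2 and 1 to 4 between the lines, and 0 to 1 members in shRNA 1 livers (1 without control replicate 1, control replicate 4 or shRNA 2 replicate 3). Exact permutation gave 3 to 5 members under 0.05 (3 without control replicate 4). The mean r with Mlxipl was 0.465 without its 2 farthest arrays, and 1 relation passed in deviations from group means.

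Signs turned for members without a call. Me1 in shRNA 2 livers was at 0.006 with median centring, 0.003 with the replicate block, 0.212 with the clock covariate, 0.036 within one clock phase and -0.215 to 0.162 with an array left out. Scd1 there was at -0.009 with array weights, -0.078 within one clock phase and -0.059 to 0.06 with an array left out. Mlxipl in shRNA 1 livers was at 0.031 with the block and -0.245 to 0.031 with an array left out. Between the lines Srebf1 was at 0.095 with the clock covariate and 0.069 within one clock phase, and at -0.315 to 0.02 with an array left out, where Pnpla3 was at -0.007 to 0.263. The causes were not tested. The number of arrays limits every comparison.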
